A study of Mus musculus with 4 samples.

Results

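The accessible chromatin of 10 genes for transcription factors of endothelial cells, Erg, Fli1, Ets1, Elk3, Sox7, Sox17, Sox18, Tal1, Lyl1 and Gata2, was examined in visceral fat of CD-1 mice by ATAC-seq. In this assay a transposase cuts open chromatin, and the sites with many cuts are called as peaks. The genes were 10 of 21000 protein-coding genes with a curated RefSeq transcript. They were chosen by their known role in endothelium after results of these same lists were known, in which promoters of endothelial genes had peaks in the BPA libraries and none in the controls. The peaks at these promoters are therefore given as a description, without a test. All mice were of the outbred CD-1 stock and 8 weeks old. The 2 control libraries came from descendants of dams given sesame oil, and the 2 BPA libraries from descendants of dams that received bisphenol A (BPA) by injection at 50 mg/kg from embryonic day 7.5 to 13.5. The labels place the BPA animals in another generation than the study's text does, and they name no sex and no batch, so batch and treatment cannot be told apart. Each library was made from nuclei of whole tissue, so more endothelial nuclei and more accessible chromatin in each such nucleus cannot be told apart.

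Endothelial cells line blood and lymph vessels and are among the nuclei that a whole fat depot yields. Their identity is held by a few families of transcription factors that act together at enhancers. ETS proteins such as ERG and FLI1 bind a GGAA core at most endothelial genes, SOXF proteins add arterial, venous and lymphatic programmes, and TAL1, LYL1 and GATA2 act in shared complexes in endothelium and in the blood lineage. Several of these factors also serve other cells, among them FLI1 and TAL1 in megakaryocytes, ETS1 in lymphocytes and GATA2 in mast cells and preadipocytes.

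A promoter peak was a peak that overlapped the 500 bp either side of a curated start site. The window of a gene ran from 20 kb before its first start site to its end. Peaks of the 4 libraries that overlapped were merged into regions, and a region was called BPA-only when both BPA libraries and neither control had a peak there, and control-only in the reverse case. The rank of a peak was its place by the authors' q-value, given as a percent of the library's list, so that a smaller value is a stronger peak. The smallest two-sided p that an exact permutation test allows with 2 libraries in each group is 0.333, so counts were set beside the same counts over all genes. Positions are on GRCm38, the assembly that mm10 names.

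In both BPA libraries a promoter peak was present at every one of the 10 genes, while 7 had one in control 1 and 5 in control 2. Over all genes the libraries were much more alike, with a promoter peak at 62.6% and 61.4% of genes in the controls and at 64.1% and 67.4% in BPA 1 and BPA 2. Erg, Sox18 and Lyl1 had a promoter peak only in the BPA libraries, 3 of 10 genes against 2.51% of all genes. None of the 10 had one only in both controls, a pattern found at 0.433% of all genes. Ets1, Elk3, Sox7, Tal1 and Gata2 had a promoter peak in all 4 libraries, 5 of 10 against 57.9% of all genes. The median rank of the promoter peaks present was 33.7% and 45.7% in the controls, against 21.3% and 15.4% in BPA 1 and BPA 2. The promoter peaks of the 10 genes thus ranked behind those of most genes, whose medians were 9.55%, 10.9%, 9.53% and 7.08% in the same order.

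**Figure D1:**
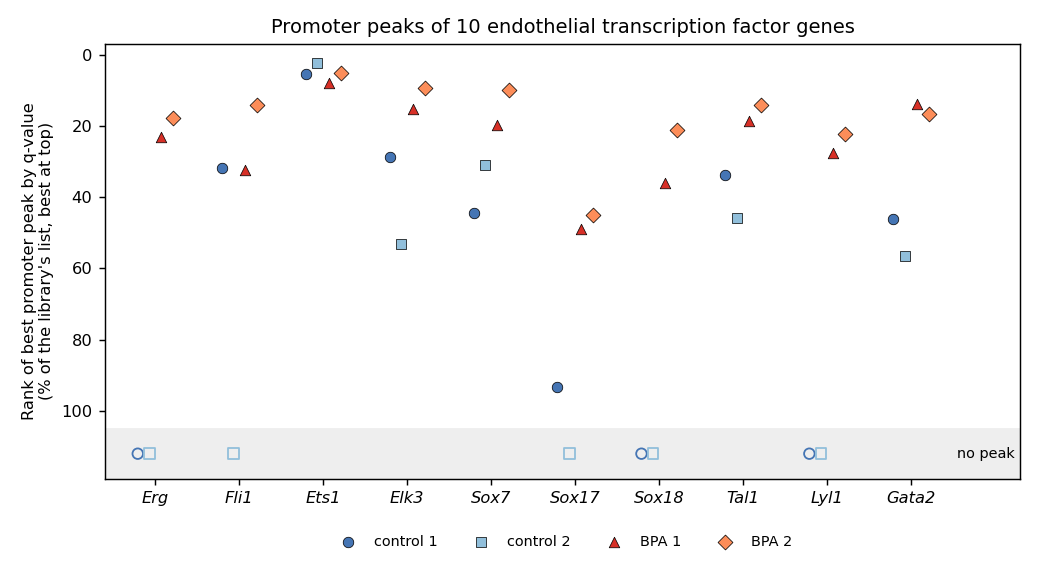
Rank of the best promoter peak of each gene in each library, as a percent of the library's peaks ordered by q-value, with the strongest at the top, and open symbols in the grey band mark libraries without a promoter peak. No BPA value is missing, whereas Erg, Sox18 and Lyl1 have no value in either control and Fli1 and Sox17 none in control 2.

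The sequence before the start site is shown for the promoters of Erg, Sox18 and Lyl1, because these are the promoters with peaks in BPA libraries only. Each line gives the exon-free stretch nearest to the start site inside the accessible region, up to 200 bases, read in the direction of the gene. Capitals mark matches on either strand to short motifs. The letters searched for ETS were AGGAAG, with CCGGAA as the alternative form. Those for SOX proteins were ACAATG, with ACAAAG as the alternative, and those for GATA proteins were AGATAA. The E-box, the site of bHLH proteins, was searched as CAGCTG, with CAGATG as the alternative, and the AP-1 site as TGANTCA.
Erg region 5, chr16:95459374-95459573, minus strand: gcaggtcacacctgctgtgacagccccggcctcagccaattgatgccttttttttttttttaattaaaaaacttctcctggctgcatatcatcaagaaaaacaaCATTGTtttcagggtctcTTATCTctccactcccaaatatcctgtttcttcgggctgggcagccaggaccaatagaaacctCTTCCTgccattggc
Sox18 region 4, chr2:181671641-181671840, minus strand: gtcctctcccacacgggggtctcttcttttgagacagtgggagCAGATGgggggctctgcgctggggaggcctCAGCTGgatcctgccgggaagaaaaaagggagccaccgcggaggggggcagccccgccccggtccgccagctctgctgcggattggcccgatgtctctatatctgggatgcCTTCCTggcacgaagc
Lyl1 region 5, chr8:84701302-84701422, plus strand: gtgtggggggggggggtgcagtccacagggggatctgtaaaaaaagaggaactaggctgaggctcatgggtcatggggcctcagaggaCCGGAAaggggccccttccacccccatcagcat
Each of the 3 stretches held 1 ETS match. The Erg stretch also had 1 GATA and 1 SOX match, and the Sox18 stretch 2 E-boxes. An ETS match of this kind was present in 38.2% of 32851 RefSeq promoter sequences of 250 bases before to 50 after the start, so it is common. That table held promoters of 5 of the 10 genes, and 3 of their 9 sequences had an ETS match.

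Among the ETS genes, Erg, which keeps the vascular lining intact, had a promoter peak in the BPA libraries only. Its peak lay at the downstream start site, at position 95459348 of chromosome 16, from which 2 of its 6 curated transcripts begin. It ranked at 23.0% in BPA 1 and 17.7% in BPA 2, and the nearest peak to any Erg start site lay 12854 bp away in control 1 and 13102 bp away in control 2. The first Erg start site, at 95586593, had a peak only in BPA 2, at a rank of 96.5%. The start site between them, at 95530365, where 3 transcripts begin, had none. Thus 1 of the 3 Erg promoters had a peak in both BPA libraries and none had a peak in a control.

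Fli1, the close relative of Erg, differed from it at the threshold of the promoter definition. At its single start site, 32541452 on chromosome 9, the promoter peak ranked at 31.9% in control 1, 32.3% in BPA 1 and 14.2% in BPA 2. Control 2 had a peak of rank 68.9% in the same accessible region, but its edge lay 515 bp from the start site, just outside the 500 bp. The summits in the other libraries lay 851 to 1076 bp into the gene. The Fli1 promoter region was therefore accessible in all 4 libraries.

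Ets1, an ETS factor of endothelium and lymphocytes, had the strongest promoter of the 10 genes and did not follow the groups. At its main start site, 32696037 on chromosome 9, where 5 of 6 transcripts begin, the ranks were 5.32% and 2.24% in the controls and 7.82% and 5.22% in the BPA libraries. The control and BPA ranks overlapped. The other start site, 32636241, ranked at 58.8% in control 1, 75.3% in BPA 1 and 28.0% in BPA 2, with no peak in control 2. Elk3, an ETS partner of serum response factor with its start site at 93311159 on chromosome 10, ranked at 28.7% and 53.1% in the controls and at 15.2% and 9.34% in the BPA libraries, without overlap.

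The SOXF genes each showed another pattern. Sox7, a factor of endothelial precursors with its start site at 63943706 on chromosome 14, had a promoter peak in all 4 libraries, with ranks of 44.5% and 30.9% in controls and 19.6% and 9.92% in BPA libraries, which did not overlap. Sox17, a factor of arterial endothelium with its start site at 4497354 on chromosome 1, ranked at 93.4% in control 1, was missing in control 2 and ranked at 49.1% and 44.9% in the BPA libraries. The control 1 peak was 280 bp wide and lay 286 bp from the start site, while those of BPA 1 and BPA 2 covered the start site and were 1118 and 1276 bp wide. Sox18, a factor of lymphatic and blood endothelium with its start site at 181671640 on chromosome 2, ranked at 36.0% in BPA 1 and 21.1% in BPA 2. The nearest control peaks lay 7309 bp and 3925 bp from its start site.

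Of the bHLH genes, Tal1, which starts at 115056426 and 115057811 on chromosome 4, had a promoter peak in all 4 libraries, at 33.7% and 45.7% in controls and at 18.6% and 14.1% in BPA libraries. Its paralogue Lyl1, with its start site at 84701457 on chromosome 8, ranked at 27.7% in BPA 1 and 22.4% in BPA 2 and had no control peak nearer than 1351 bp in control 1 and 2046 bp in control 2. A separate region upstream of Lyl1, with a summit 1493 bp before the start site, was present in all 4 libraries and ranked at 48.0%, 32.2%, 19.2% and 19.0%.

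Gata2, a zinc finger factor of endothelial, blood and preadipocyte cells, had the widest gap among the promoters found in all libraries. At the start site 88198664 on chromosome 6 it ranked at 46.2% and 56.6% in controls and at 14.0% and 16.7% in BPA libraries. At the first start site, 88193891, it ranked at 60.8% in control 2, 46.1% in BPA 1 and 38.3% in BPA 2, with no peak in control 1. Of the 5 genes with a promoter peak in all 4 libraries, Elk3, Sox7, Tal1 and Gata2 ranked better in both BPA libraries than in either control. This was 4 of 5, against 40.7% of all genes with a promoter peak in every library. None of the 5 ranked better in both controls, an order found at 18.7% of all such genes.

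The read pile-up behind these promoter peaks was higher in the BPA libraries, and so was that of most genes. Pile-up at the summit, recovered from the deposited fold and p-value, was divided by the lowest background of the library, and this expresses it on the scale of that library. For Gata2 this multiple was 7.71 and 8.89 in the controls and 62.3 and 42.1 in the BPA libraries, a ratio of group means of 6.29. The ratio was 5.51 for Elk3, 4.61 for Tal1, 3.91 for Sox7 and 2.91 for Ets1. The multiple was higher in both BPA libraries than in either control for all 5 genes, but also for 96.1% of the 12166 genes with a promoter peak in all 4 libraries, where the median ratio was 3.37. Of the 5 ratios, 4 lay above that median and that of Ets1 below it. A higher pile-up alone was thus a property of the BPA libraries as a whole, and its part in the missing control peaks was not tested.

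The background around the promoter peaks was raised in the BPA libraries as well. MACS2 takes a local background for each peak, and its median at the 5 shared promoters, as a multiple of the library's lowest background, was 2.74 and 2.18 in the controls and 7.17 and 8.98 in the BPA libraries. Over all genes with a promoter peak in every library the medians were 2.89 and 2.66 in the controls and 5.70 and 6.90 in the BPA libraries. By fold in place of q-value 2 of the 5 genes ranked better in both BPA libraries, against 39% of all such genes.

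The windows of the 10 genes held 111 regions, from 3 at Sox17 to 27 at Ets1, and none was shared between windows. Peaks lay in 57 and 42 of them in the controls and in 68 and 87 of them in BPA 1 and BPA 2. BPA-only regions numbered 26, which was 23.4% of the regions, against 9.72% of the 95118 regions in the windows of all genes. Control-only regions numbered 2, or 1.80%, against 4.64%. Regions with a peak in all 4 libraries numbered 27, or 24.3%, against 30.1%. At least 1 BPA-only region lay in 8 of the 10 windows, against 28.1% of the windows of all genes. At least 1 control-only region lay in 2 of the 10 windows, against 16.1%. These counts of windows depend on window length, which was not matched, and the ETS windows were long, from 83.7 kb at Elk3 to 247 kb at Erg.

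**Figure D2:**
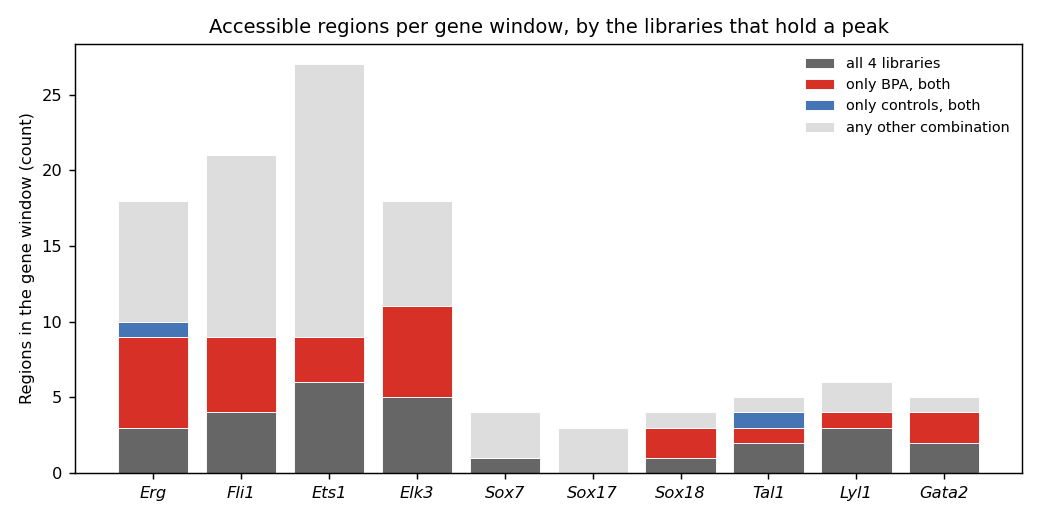
Number of accessible regions in the window of each gene, split by the libraries with a peak. The red parts, regions with a peak in both BPA libraries and neither control, reach 6 at Erg and at Elk3 and are absent at Sox7 and Sox17.

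The ETS genes, which are long, held 20 of the BPA-only regions among 84 regions. Erg had 6 of 18, Elk3 6 of 18, Fli1 5 of 21 and Ets1 3 of 27. As many BPA-only regions as at Erg and Elk3, or more, were found in 209 of the 21000 gene windows, which were of any length. The SOXF genes had 2 of 11, both at Sox18, the bHLH genes 2 of 11, with 1 each at Tal1 and Lyl1, and Gata2 had 2 of 5. Sox7 and Sox17 had none. At Sox17 both the promoter and a region in intron 2 had a peak in both BPA libraries and in 1 control, the intron at a rank of 82.4% in control 2, 22.2% in BPA 1 and 16.6% in BPA 2.

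Most of the 26 BPA-only regions lay in introns. There were 18 in introns (numbered in the longest curated transcript), 3 at promoters, 3 upstream of the gene, 1 in a coding exon and 1 at the promoter of another gene, Gm32688, upstream of Elk3. In introns of the long ETS genes they were spread over the gene body. At Erg they followed the downstream promoter into introns 3 and 4, and 1 more lay in intron 1. At Fli1, 4 lay in intron 1 and 1 in intron 5.

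**Figure D3:**
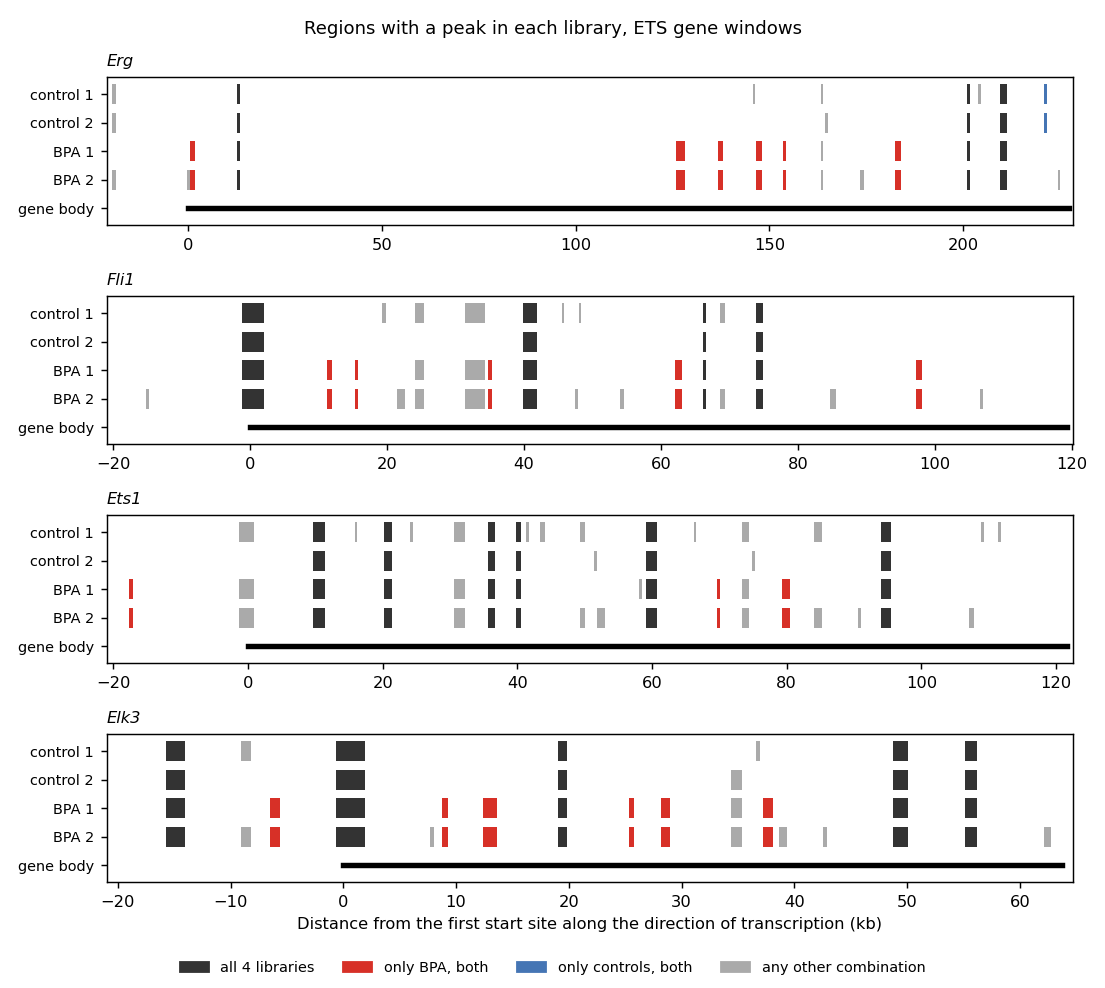
Regions with a peak in each library along the windows of Erg, Fli1, Ets1 and Elk3, by distance in kb from the first start site in the direction of transcription. The black bar is the gene body, and narrow regions are drawn wider than they are so that they can be seen. The red regions have peaks in both BPA libraries only. Many lie between regions found in all 4 libraries, but at Erg and Ets1 the first lies before these, and at Fli1 the last lies past them. The single blue region, in both controls only, lies in the last stretch of Erg.

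The 100 bases either side of the summit are shown for 6 BPA-only regions outside promoters, because they carry the difference away from the start sites. They are the best-ranked exon-free region of each gene that lay at a rank under 50% in both BPA lists. All are written on the plus strand of the genome, with capitals for the motifs named above.
Erg region 8, chr16:95439219-95439419, plus strand: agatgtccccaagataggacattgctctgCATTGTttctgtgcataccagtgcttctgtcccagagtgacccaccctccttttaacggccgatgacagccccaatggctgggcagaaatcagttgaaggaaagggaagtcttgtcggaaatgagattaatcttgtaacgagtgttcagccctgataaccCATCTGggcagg
Fli1 region 9, chr9:32506271-32506471, plus strand: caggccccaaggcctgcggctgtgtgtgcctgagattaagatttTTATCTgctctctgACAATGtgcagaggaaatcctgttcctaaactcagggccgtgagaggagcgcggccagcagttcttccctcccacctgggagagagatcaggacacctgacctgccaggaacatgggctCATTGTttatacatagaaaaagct
Ets1 region 21, chr9:32716124-32716324, plus strand: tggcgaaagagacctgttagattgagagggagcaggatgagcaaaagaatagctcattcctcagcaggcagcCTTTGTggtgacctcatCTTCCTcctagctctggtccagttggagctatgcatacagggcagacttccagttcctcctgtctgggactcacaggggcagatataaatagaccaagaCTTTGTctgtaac
Elk3 region 7, chr10:93297913-93298113, plus strand: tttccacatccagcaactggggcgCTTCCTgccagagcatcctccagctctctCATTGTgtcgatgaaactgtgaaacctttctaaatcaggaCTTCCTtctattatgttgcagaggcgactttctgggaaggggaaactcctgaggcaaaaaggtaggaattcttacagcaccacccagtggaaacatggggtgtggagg
Sox18 region 2, chr2:181677367-181677567, plus strand: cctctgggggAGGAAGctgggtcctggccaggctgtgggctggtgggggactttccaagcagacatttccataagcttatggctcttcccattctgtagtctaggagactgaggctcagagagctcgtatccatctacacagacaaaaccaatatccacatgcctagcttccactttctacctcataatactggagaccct
Gata2 region 4, chr6:88203162-88203362, plus strand: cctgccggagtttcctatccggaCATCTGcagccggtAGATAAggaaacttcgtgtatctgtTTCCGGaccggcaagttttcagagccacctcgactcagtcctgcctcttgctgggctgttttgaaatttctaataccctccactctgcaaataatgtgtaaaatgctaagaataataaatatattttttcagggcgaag
Erg region 8, in intron 3, had the best rank of the 26 BPA-only regions when each was judged by the worse of its 2 ranks, which were 16.8% in BPA 1 and 18.0% in BPA 2. It held 1 SOX match and 1 E-box. Fli1 region 9, in intron 1, ranked at 25.4% and 28.0% and held 2 SOX matches and 1 GATA match. Ets1 region 21, in intron 3, ranked at 20.2% and 15.5% and held 1 ETS and 2 SOX matches. Elk3 region 7, in intron 1, ranked at 32.3% and 36.4% and held 2 ETS matches and 1 SOX match. Upstream of Sox18, region 2 lay 5827 bp before the start site, ranked at 38.4% and 30.4% and held 1 ETS match. Gata2 region 4, in intron 4, ranked at 28.4% and 28.8% and held 1 match each to ETS, GATA and the E-box.

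As a set, the BPA-only regions of these genes were strong for their class. Of the 26, 14 (53.8%) ranked under 50% in both BPA lists, against 24.6% of the BPA-only regions in the windows of all genes. Their median rank was 37.8% in BPA 1 and 39.1% in BPA 2, against 65.3% and 51.2%. Their median width of 836 bp and G+C content of 49.6% were near the 754 bp and 49.1% of all BPA-only regions. The weakest were Elk3 region 13 in intron 2, at 90.7% and 73.4%, and Gata2 region 5 in coding exon 5, at 90.6% and 73.7%.

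The regions shared by all 4 libraries showed the same order less fully. Of the 27, 15 (55.6%) ranked better in both BPA libraries than in either control, against 30.4% of shared regions in the windows of all genes, and 2 (7.41%) ranked better in both controls, against 25.3%. Gata2 region 1, with a summit 4103 bp before the first start site, ranked at 61.2% and 90.7% in controls and at 46.7% and 23.9% in BPA libraries. Elk3 region 16, in intron 2, ranked at 73.2% and 51.6% in controls and at 21.1% and 12.6% in BPA libraries. Elk3 region 17, in the same intron, had the reverse order, with 42.8% and 24.1% in controls and 68.1% and 62.5% in BPA libraries. The other region with the reverse order, Fli1 region 18 in intron 2, ranked at 63.3% and 41.7% in controls and at 85.4% and 89.0% in BPA libraries. By the authors' fold the groups overlapped at both, with 4.05 and 5.96 in controls and 4.81 and 3.86 in BPA libraries at Elk3 region 17, and 3.18 and 4.29 against 3.69 and 2.65 at Fli1 region 18. The reverse order at these 2 regions was thus one of rank by q-value and not of fold, read here without ranking in the library. By the same fold the groups did not overlap at Gata2 region 1 (3.78 and 2.75 in controls, 5.28 and 5.89 in BPA libraries) or Elk3 region 16 (3.19 and 4.33 against 8.07 and 7.46). They did overlap at the Lyl1 region upstream of its promoter (3.25 and 4.62 against 4.61 and 3.45). Fold is not given for the other shared regions.

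There were 2 control-only regions, both narrow. Erg region 17, in intron 10, was 421 bp wide and ranked at 39.2% in control 1 and 57.8% in control 2. Tal1 region 1, upstream of Tal1 and inside the neighbouring gene Stil, was 267 bp wide and ranked at 60.7% and 40.8%.

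Short motif matches were counted within 100 bases either side of the summit of the best-ranked peak of each region. ETS letters, bound by the products of Erg, Fli1, Ets1 and Elk3 themselves, were found in 18 of the 26 BPA-only regions (69.2%). They were found in 47.1% of the BPA-only regions in all gene windows, in 35.5% of the regions shared by all 4 libraries there, in 23.8% of the control-only regions there and in 32.8% of all 147153 regions searched. In the 27 shared regions of the 10 genes the number was 8 (29.6%). SOX letters were found in 12 of the 26 (46.2%), in 28.5% of all BPA-only regions and in 3 of the 27 shared regions (11.1%), against 17.0% of all shared regions in gene windows. GATA letters were found in 4 of the 26 (15.4%) and in none of the 27. They were found in 7.63% of all BPA-only regions, 6.40% of all shared regions and 10.9% of all regions. In the control-only regions of all gene windows their share was higher, at 17.4%. For the E-box, 9 of the 26 (34.6%) had a match, near the 34.1% of all BPA-only regions, and for AP-1 2 of the 26 (7.69%), against 12.4%. A match is a description of the letters and not of a bound factor.

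Promoters of related factors were read from lists in the same way. Of 10 other ETS genes, among them Ets2, Etv6, Elf1 and Gabpa, 9 were accessible at the promoter in all 4 libraries, and none was BPA-only. By rank, 6 of those 9 were better in both BPA libraries than in either control and 2 were better in both controls. Etv2, which starts the endothelial programme in the embryo, had none in any library. Of 6 other SOX genes 5 had a peak in all 4, and of 9 genes for partners and relatives of Tal1, Lyl1 and Gata2, such as Lmo2, Ldb1, Tcf3 and Gata3, 8 did. Neither list held a BPA-only gene, and 2 of the 5 and 3 of the 8 ranked better in both BPA libraries. Lmo2, which bridges TAL1 and GATA proteins, ranked at 17.5% and 44.7% in controls and at 16.6% and 7.59% in BPA libraries. Of 14 other regulators of endothelium 11 had a peak in all 4 libraries, and 7 of the 11 ranked better in both BPA libraries. Among all genes with a promoter peak in every library 40.7% ranked better in both BPA libraries. The other ETS genes (66.7%) and regulators of endothelium (63.6%) lay above that share, and the SOX (40%) and partner genes (37.5%) near it. BPA-only promoters were found at none of the other ETS, SOX and partner genes. Of all genes 2.51% had one, a share at which short lists may hold none. Of the 14 regulators of endothelium Bcl6b and Notch4 were BPA-only, with ranks of 10.0% and 8.35% for Bcl6b and 22.9% and 10.8% for Notch4.

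The markers of cell types were read in the same way. The 10 genes were chosen after such peaks at endothelial promoters were known, so the endothelial markers are no separate support. Of 22 endothelial markers 7 had a promoter peak in each control, 20 in BPA 1 and 21 in BPA 2. The 12 BPA-only markers, against 2.51% of all genes, included the receptor gene Tie1 and the von Willebrand factor gene Vwf. Of 10 leukocyte markers 3 and 4 had a peak in the controls and 6 and 7 in the BPA libraries, and Cd68 and Laptm5 were BPA-only, while Cd3e and Csf1r had no promoter peak in any library. Of 8 markers of mast cells, megakaryocytes and erythroid cells 2 had a peak in all 4 libraries and 6, among them Gata1, Itga2b and Cpa3, had none anywhere. Of 7 pericyte and smooth muscle markers 1, Rgs5, was BPA-only, at ranks of 90.3% and 59.99%, and 4 were present in all. Of these 4, Pdgfrb ranked better in both controls, at 20.8% and 24.3% against 27.4% and 27.4% in the BPA libraries. Myh11 ranked better in both BPA libraries, at 42.4% and 43.1% against 45.1% and 43.3% in the controls. Of 4 lymphatic markers 2 had a peak in each control, 2 in BPA 1 and 3 in BPA 2, and Lyve1 was BPA-only. Only Prox1 was present in all 4 libraries, at ranks of 67.7% and 89.4% in controls and 21.9% and 18.3% in BPA libraries. Of 4 mesothelial markers 3 and 2 had a peak in the controls and 2 and 1 in the BPA libraries, Lrrn4 in control 1 alone, and none was BPA-only. Only Wt1 was present in all 4 libraries. It ranked better in both BPA libraries, at 20.5% and 20.9% against 30.9% and 26.1% in the controls. Every library had a promoter peak at all 7 adipocyte markers. Of these only Pparg and Cebpa (28.6%, against 40.7% of all such genes) ranked better in both BPA libraries, and none did in both controls. The median rank of the adipocyte markers was 54.3% and 23.1% in controls and 64.7% and 51.2% in BPA libraries. None of 3 hepatocyte markers had a promoter peak in any library. The part of a different share of endothelial or leukocyte nuclei in the values of the 10 genes was not tested.

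**Figure D4:**
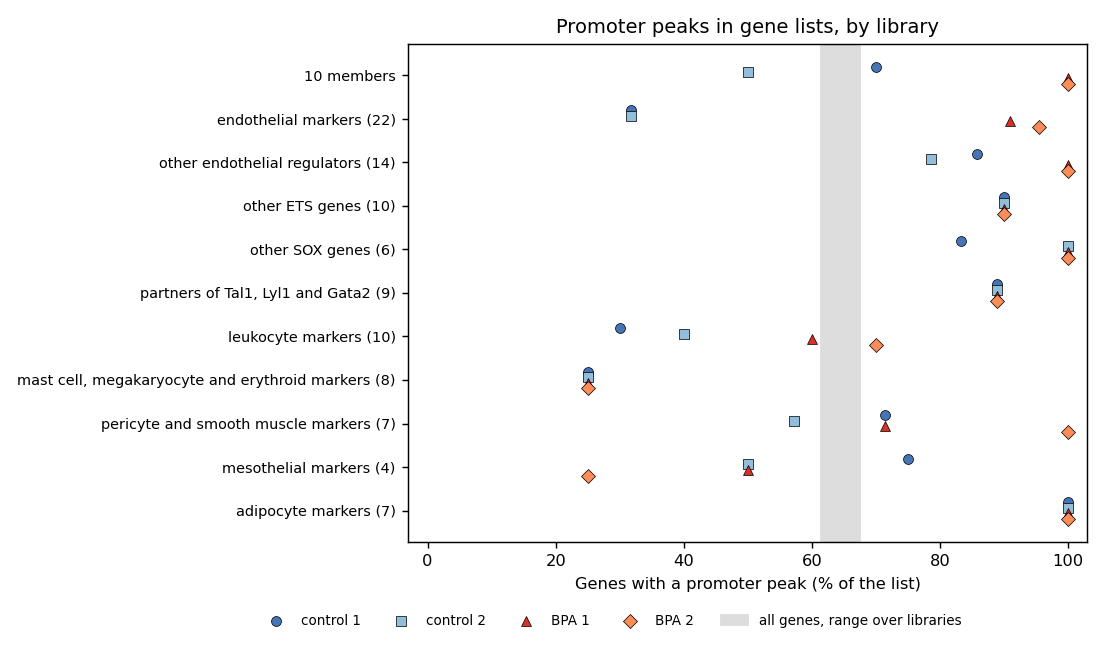
Percent of the genes of each list with a promoter peak in each library, with the number of genes in parentheses. The grey band is the range over the 4 libraries for all genes, 61.4% to 67.4%. The 10 genes, the endothelial markers, the other endothelial regulators and the leukocyte markers have a larger percent in both BPA libraries than in either control. The other ETS genes, the partner genes and the adipocyte markers have the same percent in every library, at or near all of their genes.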

How the data were processed

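ATAC-seq peak lists of 4 libraries were used, 2 control and 2 BPA. Per the labels and the study's methods, the authors trimmed reads with Trim Galore, mapped them to mm10 with Bowtie2 2.3.5.1, kept unique reads, removed duplicates with SAMtools and ran MACS2 2.2.7.1 separately on every library. The q-value cutoff, genome size and read extension are not given in the sources used here. The deposited score is 10 times the −log10 q-value as a whole number. The deposited ratio is the fold of pile-up over local background. The deposited p-value and q-value are on the −log10 scale. The last column deposited by the authors is the summit's distance from the peak start, used here as such.

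There were 82665 and 88911 peaks in the control lists and 72375 and 98060 in those of BPA 1 and BPA 2, with lowest −log10 q-values of 1.30 to 1.31. Read totals are not in the lists. Pile-up and background were solved from fold and p-value, and for 100% of peaks they gave back the p-value to a relative error under 0.0001. The lowest background, 2.85 and 2.70 in the controls and 1.16 and 3.80 in the BPA libraries, is a rough measure of depth, so BPA 1 was the shallowest. A site missing from a list had no peak called there, which does not show it to be closed. The part of depth in the missing peaks was not tested.

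Peaks of all libraries overlapping by at least 1 bp were merged into 147157 regions. A region was counted in each window that it overlapped, for 21000 genes on chromosomes of GRCm38. Regions that overlapped the 500 bp either side of a start site were placed at promoters. The others were placed by the summit of the best-ranked peak. Sequences are from RefSeq's GRCm38 genome, and stretches in exons were not printed. Motifs were searched on both strands in the 147153 regions on chromosomes read here. Analyses ran in Python 3.11.15 with numpy 2.4.6, scipy 1.17.1 and pandas 2.3.3, and plots in matplotlib 3.10.9. The counting and the pile-up solution were tested on simulated peaks. The members, gene lists, marker lists and motifs were chosen with earlier results of these data known. By rule all 10 genes, their BPA-only and control-only regions and the best-ranked region of each window could be named. The shared Elk3, Fli1 and Gata2 regions, the Lyl1 upstream region, the Sox17 intron region and the list genes given with ranks were named after their values were seen. Alternatives were other q-value limits, list lengths, promoter and window sizes, start site sets, overlaps, rankings and leaving out each library.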

Additional observations from a re-analysis of the deposited data

How the results depend on the processing

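No paired analysis was possible because the counts come from no test. Both groups are labelled with replicates 1 and 2, the labels tie no control to a BPA library, and the deposited list of BPA 2 is named after another replicate number. The counts given above were 3 genes with a BPA-only promoter, 26 BPA-only and 2 control-only regions, and 4 genes ranking better in both BPA libraries. Of 51 alternative values, 36 stayed within 1.5 times of these counts and 15 moved further. With the best 20000 peaks the counts became 5, 14, 0 and 0, since fewer peaks leave fewer promoters in all 4 lists. The genes changed as well. By their ranks the 5 were Erg with Elk3, Sox7, Tal1 and Gata2, whose weaker control peaks were cut, while Sox18 and Lyl1 dropped out. A −log10 q-value of at least 5, or windows without the upstream part, each left 1 control-only region. Regions reproducible at 50% of both lengths gave 15 BPA-only regions. A peak in at least 1 library of the group gave 43 BPA-only and 22 control-only regions, and thus lowered the excess of the former. Ranking by fold left 2 genes, and counting a missing peak as ranked last gave 8. Leaving out 1 library gave 3 to 5 promoters (5 without control 1), 30 to 42 BPA-only regions (42 without BPA 1) and 3 to 15 control-only regions (9 without control 1 and 15 without control 2). These rise by construction, since fewer lists must agree. The share of all genes with a BPA-only promoter, 2.51% with every library, rose as well. It was 4.61% without control 1, 3.63% without control 2, 4.66% without BPA 1 and 2.70% without BPA 2. The BPA-only share of the regions stayed above that of all gene windows each time. It was 38.2% against 24.2% without BPA 1 and 30.4% against 14.8% without BPA 2. Without control 1 it was 35.4% against 14.4%, and without control 2 it was 28.8% against 15.8%. Shares over all genes or regions are not given for the other settings. Pile-up over the lowest background in place of the rank, chosen after seeing the data, gave 5 genes. Other causes were not tested. A site missing in BPA 1, the shallowest library, or in a control with its lower pile-up may lie below detection.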

Other observations

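Beyond the windows, the stretch from 20 to 50 kb before the first start site was also read. Over the 10 genes 7 of 30 regions there (23.3%) were BPA-only, against 10.2% of the 36805 regions in that stretch of any gene. Sox7 and Sox17, whose windows held no BPA-only region, had 2 of 6 and 2 of 4 regions of that class there, and Sox17 had 1 control-only region. Ets1, Elk3 and Gata2 had 1 each, of 6, 5 and 2 regions. Erg had no region there, and Fli1, Sox18, Tal1 and Lyl1 had 2, 1, 1 and 3 regions, with 0 BPA-only. Between the windows of Fli1 and Ets1, which are neighbours on chromosome 9 with 54.8 kb between them, 1 of 7 regions was BPA-only. These stretches were chosen after seeing the data.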
